A study of Drosophila melanogaster with 7 samples.

Results

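The genes described here encode structural cuticle proteins. They were chosen by symbol: every probe set of the array that named 1 gene whose current, platform or older symbol starts with Cpr, Lcp, Ccp84A, Twdl, Pcp, Acp65A or Edg, with the probe set of the highest mean over the 7 arrays standing for a gene. This gave 94 genes, measured by 100 probe sets, of 10845 genes on the array, and of 129 genes that meet the same rule in the RefSeq table. By current symbol 58 were Cpr genes, 5 Lcp, 4 Ccp84A, 20 Twdl and 5 belonged to the pupal, adult and ecdysone-dependent group (*Pcp*, *Acp65Aa*, *Edg78E*, *Edg84A* and *Edg91*). The remaining members, *Tb* and *CG34462*, entered by an older name, *TwdlA* and *Cpr66Ca*, and the second of these names is shared with another gene.

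RNA came from whole *Drosophila melanogaster* larvae of mixed sex in the first instar. There were 4 pools of pof mutant larvae and 3 pools of wild-type larvae, 400 larvae a pool, and 1 single-colour Affymetrix array was hybridised with polyA RNA from each. The *Pof* protein binds RNA and is found along chromosome 4. None of the 94 genes lies on that chromosome: 35 are on 3L, 29 on 3R, 19 on 2R, 6 on 2L and 5 on X. The allele, the genetic background of both stocks and hours since hatching are given neither in the labels nor in the design text. The pools are called biological replicates, but nothing says whether they came from separate crosses, so p-values measure the spread between these pools.

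The insect cuticle is an extracellular layer of chitin fibres and proteins that epidermal and tracheal cells secrete at their outer surface, and it is rebuilt at each moult under pulses of ecdysone. Cpr, Lcp, Ccp84A, Pcp, Acp65A and most Edg proteins carry the Rebers and Riddiford domain, which binds chitin. Tweedle (Twdl) proteins form a separate family that lacks this domain, and dominant mutations in some of them change the shape of the larva. Many of these genes stand in tandem arrays of related copies, and each copy is known to be used in particular body regions and particular windows of a moult cycle.

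The arrays had nearly equal medians, from 6.01 to 6.06 on the log2 scale. They differed in how far the 3' probe sets of 3 control transcripts (actin, eIF-4a, GAPDH) exceeded the 5' ones, a measure of how evenly long transcripts are represented. It was 4.32 on wild type replicate 1, 3.95 and 3.22 on pof mutant replicates 2 and 1, and 1.93 to 2.19 on the remaining 4. *Pof* itself read 3.41 to 3.50 in the mutant and 3.64 to 3.90 in wild type, with no overlap (limma, unadjusted p = 0.00263, adjusted p = 0.323). These values were near the floor of the array, where RMA compresses differences. Over all probe sets 9 of 13966 passed limma's threshold of adjusted p under 0.05.

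None of the 94 cuticle protein genes passed that threshold, which 0.0644% of all probe sets passed. The smallest adjusted p was 0.485 (limma, Benjamini-Hochberg over 13966 probe sets). At an unadjusted p under 0.05 there were 5 genes, or 5.32%, against 5.43% of all probe sets. The 4 mutant arrays lay wholly on 1 side of the 3 wild-type arrays for 4 genes, or 4.26%, against 6.0% of all probe sets. Of the 5 genes 4 were lower in the mutant (4.26%, against 2.37% of all probe sets), and of the 4 without overlap 3 were (3.19%, against 2.79%). These shares were near the background. No difference between pof mutant and wild type larvae was detectable for any single cuticle protein gene with 7 arrays.

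**Figure D1:**
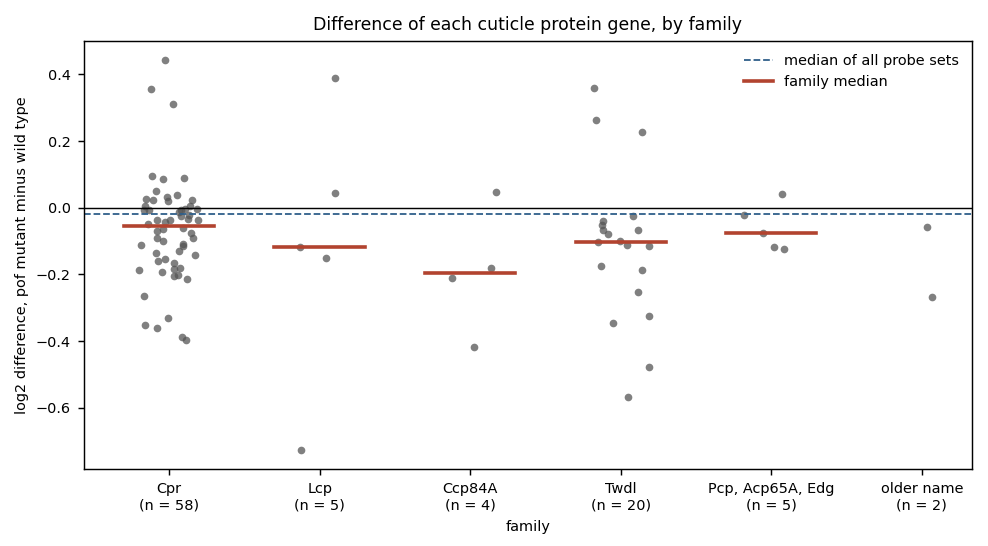
Each point is the log2 difference of a cuticle protein gene, pof mutant minus wild type, by family on the horizontal axis. Red bars are family medians and the dashed line is the median of all 13966 probe sets. Only 4 genes lie below -0.40, with *Lcp65Af* at -0.73 and *TwdlF* at -0.57 lowest, and *Cpr49Ac* at 0.44 is the highest.

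Small differences leaned to lower values in the mutant. Of the 94 genes 72 (76.6%) were lower in the mutant by their means, against 58.0% of all probe sets. Their median log2 difference was -0.08, against -0.02 over all probe sets, and it lay between -0.12 and -0.05 when 1 array was left out. At a mean level of at least 6, about the median of each array, 52 of 67 genes (77.6%) were lower, against 51.6% of 7121 probe sets. The count changed when single arrays were left out, and the share over all probe sets changed too. Without wild type replicate 1 the count was 60 of 94 (63.8%, against 47.4% of all probe sets). Without wild type replicate 3 or pof mutant replicate 3 it was 64 (68.1%, against 59.6% and 55.8%). Without pof mutant replicate 2 it was 78 (83.0%, against 59.9%). With array weights, an alternative listed below, it was 61 (64.9%, against 53.4%). Genes of the families are not independent of each other, and no test was made of the lean.

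By family, 43 of 58 Cpr genes were lower in the mutant by their means, with a median log2 difference of -0.06. The count was 3 of 5 for Lcp genes (median -0.12), 3 of 4 for Ccp84A genes (-0.19), 17 of 20 for Twdl genes (-0.10) and 4 of 5 for the pupal, adult and ecdysone-dependent group (-0.08). These medians rested in part on single arrays. Without wild type replicate 3 that of Twdl genes was -0.03, that of Ccp84A genes -0.08 and that of Lcp genes 0.03. The Cpr median was -0.02 without wild type replicate 1 and -0.10 without pof mutant replicate 2. That of the pupal, adult and ecdysone-dependent group was 0.023 without wild type replicate 1 and 0.0094 without pof mutant replicate 3. No gene of any family passed the threshold. In pools of whole larvae, fewer cuticle-secreting cells and less RNA of these genes per cell cannot be told apart. The per-array medians, each gene taken relative to its mean over the 7 arrays, were -0.04, 0.04, -0.11 and -0.04 on pof mutant replicates 1 to 4 and 0.05, -0.04 and 0.10 on wild type replicates 1 to 3. The groups overlapped: pof mutant replicate 2 lay among the wild-type arrays and wild type replicate 2 among the mutant ones.

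The 5 genes with an unadjusted p under 0.05 were 3 Cpr genes and 2 Tweedle genes. *Cpr47Ec* (CG9077, 2R), an RR protein gene of a tandem array at 47E, read 3.92, 4.09, 3.78 and 3.97 on pof mutant replicates 1 to 4 and 4.36, 4.16 and 4.30 on wild type replicates 1 to 3. All mutant values lay below all wild-type values, though the nearest arrays were close. The log2 difference was -0.33 ± 0.09 (SE; limma, unadjusted p = 0.00677, adjusted p = 0.485), or 0.795-fold. Its level was low on every array, where RMA compresses differences.

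*Cpr49Ac* (CG8502, 2R), of the array at 49A, was the 1 gene of the 5 with higher values in the mutant. It read 7.01, 6.92, 7.05 and 7.38 in the mutant and 6.44, 6.83 and 6.67 in wild type, with no overlap. The mutant mean was 7.09 ± 0.20 (SD, n = 4) and the wild-type mean 6.65 ± 0.19 (SD, n = 3), a log2 difference of 0.44 ± 0.13 (SE; limma, unadjusted p = 0.0107, adjusted p = 0.608), or 1.36-fold. Its measured neighbours at 49A did not share it: *Cpr49Ab*, *Cpr49Ad*, *Cpr49Ae*, *Cpr49Af* and *Cpr49Ah* had differences between -0.20 and 0.05.

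*Cpr65Ec* (CG8634, 3L) read 5.95, 6.06, 5.87 and 5.89 in the mutant and 6.17, 6.09 and 6.37 in wild type. The nearest arrays of the groups, pof mutant replicate 2 and wild type replicate 2, were almost level. The difference was -0.27 ± 0.09 (SE; limma, unadjusted p = 0.0169, adjusted p = 0.704). *Twdlbeta* (CG8986, 2R) read 7.38, 7.57, 7.48 and 7.42 in the mutant and 7.83, 7.55 and 7.98 in wild type, a difference of -0.33 ± 0.11 (SE; unadjusted p = 0.0172, adjusted p = 0.705). Here the groups overlapped, since wild type replicate 2 lay below pof mutant replicate 2.

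*Tb* (CG5480, 3R), the Tweedle gene whose dominant allele Tubby gives short, stout larvae, read 4.25, 4.36, 4.38 and 4.24 in the mutant and 4.60, 4.34 and 4.79 in wild type. Its wild-type replicate 2 lay within the mutant range, and the difference was -0.27 ± 0.11 (SE; limma, unadjusted p = 0.0408, adjusted p = 0.885). *TwdlE* (CG14534, 2L) missed an unadjusted p of 0.05 (0.0519), but its groups did not overlap, at 6.20, 6.25, 6.01 and 6.19 in the mutant and 6.33, 6.27 and 6.41 in wild type. Its log2 difference was -0.18 ± 0.08 (SE; limma, adjusted p = 0.917).

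**Figure D2:**
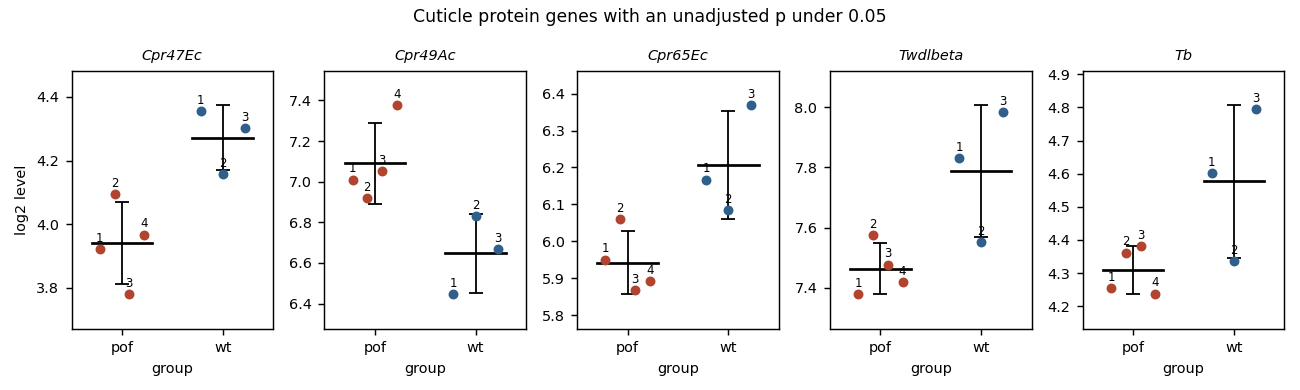
Log2 level of the 5 cuticle protein genes with an unadjusted p under 0.05, by group. Points are arrays marked with their replicate number, and bars are the group mean ± SD (n = 4 pof mutant, n = 3 wild type). The groups do not overlap for *Cpr47Ec*, *Cpr49Ac* and *Cpr65Ec*, and wild type replicate 2 lies among the mutant arrays for *Twdlbeta* and *Tb*.

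Single pools differed by more than the groups did for a subset of genes. Of the 94 genes 18 (19.1%) ranged over more than 1 log2 unit across the 7 arrays, against 6.14% of all probe sets. The median range of the members was 0.49, against 0.37 over all probe sets, and at a level of at least 6 it was 0.50 against 0.39. Among the 3 wild-type arrays alone 14 of the 18 ranged over more than 1, and among the 4 mutant arrays alone 5 did. These 18 were 8 Cpr, 2 Lcp, 1 Ccp84A and 7 Twdl genes. The highest of the 7 values lay on wild type replicate 3 for 12 of the 18, and the lowest on wild type replicate 1 for 8 and on pof mutant replicate 3 for 7.

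Across all 94 genes wild type replicate 3 was the highest array for 38 (40.4%), against 11.7% of all probe sets. It was the highest for 12 of 20 Twdl genes and 20 of 58 Cpr genes. Pof mutant replicate 3 was the lowest array for 37 genes (39.4%), against 17.7% of all probe sets. Wild type replicate 1 was the highest for 28 (29.8%), against 36.2% of all probe sets. The other shares of highest values were 0.0%, 14.9%, 2.13% and 8.51% on pof mutant replicates 1 to 4, against 7.17%, 13.1%, 13.5% and 7.65%, and 4.26% on wild type replicate 2, against 10.7%. The other shares of lowest values were 10.6%, 4.26% and 11.7% on pof mutant replicates 1, 2 and 4, against 14.9%, 8.86% and 9.07%. They were 14.9%, 9.57% and 9.57% on wild type replicates 1 to 3, against 22.8%, 8.42% and 18.3%. Among the shares of highest values, that on wild type replicate 3 was farthest above its background.

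**Figure D3:**
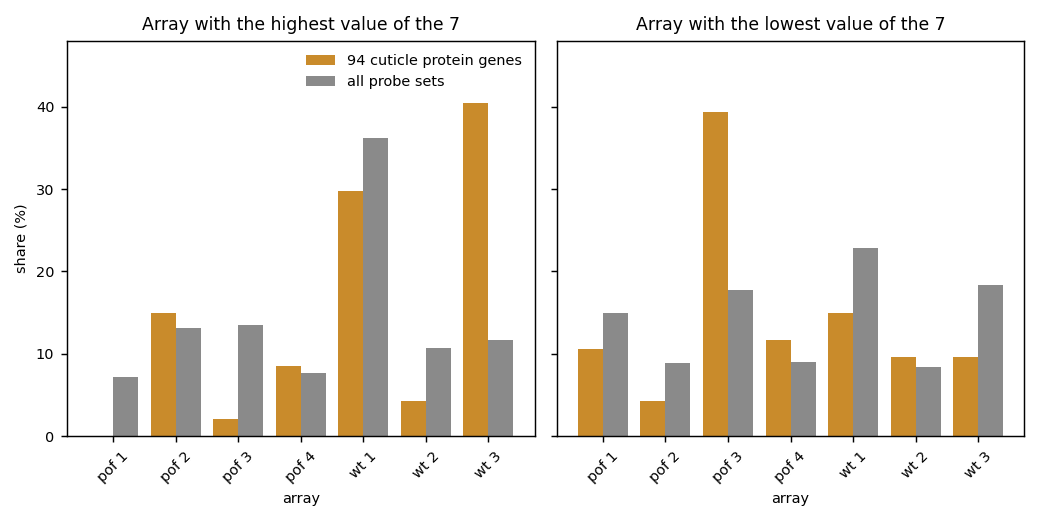
Share in percent of the 94 cuticle protein genes (brown) and of all 13966 probe sets (grey) whose highest value (left) or lowest value (right) lay on each of the 7 arrays. Wild type replicate 3 held the highest value of 40.4% of the genes against 11.7% of all probe sets, and pof mutant replicate 3 the lowest of 39.4% against 17.7%.

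On wild type replicate 3, 8 members stood at least 0.5 log2 units above each of the other 6 arrays, a limit chosen after the values were seen. They were *Cpr64Ad*, *Lcp65Af*, *Cpr65Ea*, *Cpr67Fb*, *TwdlF*, *TwdlV*, *TwdlM* and *Cpr11A*. That is 8.51% of the members, against 0.358% (50) of all probe sets. No member stood that far above the rest on any other array. *TwdlF* (CG14639, 3R) read 7.34, 7.43, 7.21 and 7.33 in the mutant and 7.43, 7.29 and 8.97 in wild type. On 6 arrays its level was thus almost constant, and on wild type replicate 3 it was 3.10-fold the mean of the other 6.

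*TwdlV* (CG14640, 3R; named after its values were seen), close to *TwdlF* in the genome, read 5.62, 6.15, 5.49 and 5.78 in the mutant and 5.85, 5.82 and 7.05 in wild type. *TwdlG* of the same cluster was also highest on wild type replicate 3, at 8.79 against 8.52 to 8.63 on the other arrays, a much smaller step. The array of *TwdlF*, *TwdlG* and *TwdlV* therefore had the largest median difference of the 13 gene clusters, -0.48 and that value rested on 1 array: without wild type replicate 3 the median was -0.05.

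*Cpr64Ad* (CG1259, 3L) read 8.07, 8.28, 7.77 and 8.04 in the mutant and 7.95, 7.86 and 9.50 in wild type. Its neighbours *Cpr64Aa*, *Cpr64Ab* and *Cpr64Ac* ranged over 0.20 to 0.58 across the arrays. *Cpr64Ad* was 2.85-fold higher on wild type replicate 3 than the mean of the other arrays, and without that array its log2 difference turned from -0.40 to 0.14 (limma, adjusted p = 0.735). *Cpr65Ea* (CG8640, 3L) read 5.50, 5.64, 5.50 and 5.66 in the mutant and 5.74, 5.64 and 6.51 in wild type. All 3 measured genes at 65E, *Cpr65Ea*, *Cpr65Eb* and *Cpr65Ec*, were highest on that array.

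*TwdlM* (CG5468, 3R; also named after its values were seen), part of a run of 12 measured Tweedle genes on 3R, read 9.94, 10.09, 9.91 and 9.90 in the mutant and 9.79, 9.81 and 11.04 in wild type. Its other probe set had the same pattern at a lower signal, with 8.38 on wild type replicate 3 and 6.20 to 6.58 on the other arrays. Whether either probe set also binds RNA of related Tweedle genes was not tested. *Cpr67Fb* (CG18348, 3L; named after its values were seen) read 7.16 on wild type replicate 3 and 6.19 to 6.62 elsewhere. The 8 genes that stood above the rest on wild type replicate 3 were picked by that value, so sharing it follows from the choice. They are Cpr, Lcp and Twdl genes on 3L, 3R and X, and *TwdlF* and *TwdlV* are of the same cluster.

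Some genes, among them *Lcp65Af* from the list above, were high on arrays of both groups. *Lcp65Af* (CG10533, 3L), a larval cuticle protein gene of the 65A cluster, had the widest range of all members. It read 6.17, 7.94, 6.18 and 7.02 on pof mutant replicates 1 to 4 and 7.77, 6.03 and 8.88 on wild type replicates 1 to 3, a range of 7.22-fold. The high pools were replicate 2 of the mutant and replicates 1 and 3 of wild type. The low ones were replicates 1 and 3 of the mutant and replicate 2 of wild type. The groups were 6.83 ± 0.84 (SD, n = 4) and 7.56 ± 1.44 (SD, n = 3), and the difference of -0.73 ± 0.69 (SE; limma, adjusted p = 0.962) was about as large as its error.

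*TwdlL* (CG6447, 3R), named after its values were seen, followed the same arrays: 7.19, 8.13, 7.09 and 7.31 in the mutant and 7.83, 7.10 and 8.40 in wild type. *Ccp84Ag* (CG2342, 3R), the gene of the 84A cluster with the widest range, read 9.00, 9.65, 8.60 and 8.78 in the mutant and 9.47, 8.88 and 9.93 in wild type. For both genes the highest array of the mutant was replicate 2 and the lowest was replicate 3. The wild-type order was also the same, with replicate 3 high, replicate 1 between and replicate 2 low. *Cpr67Fa2* (CG18349, 3L; named after its values were seen), at a low level, read 3.74, 4.77, 3.21 and 4.06 in the mutant and 4.44, 3.29 and 3.99 in wild type. It too was low on pof mutant replicate 3 and wild type replicate 2, but its highest array was pof mutant replicate 2, and wild type replicate 3 lay near its middle.

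A further set was low on wild type replicate 1, where the 3' excess of the controls was largest. There 5 members (5.32%) stood at least 0.5 below each other array, against 2.4% of all probe sets: *Cpr67B*, *TwdlO*, *TwdlN*, *Cpr11A* and *Cpr11B*. *TwdlO* (CG6452, 3R) read 9.48, 9.22, 9.66 and 10.27 in the mutant and 8.48, 9.57 and 10.13 in wild type. Its log2 difference was 0.26 ± 0.39 (SE; limma, adjusted p = 0.967), and it turned to -0.19 without wild type replicate 1. With the 3' excess as a covariate it was 0.32 (adjusted p = 0.415).

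*Cpr11A* (CG2560, X; named after its values were seen) had both features. It read 6.37, 6.49, 6.85 and 7.34 in the mutant and 5.81, 7.02 and 7.88 in wild type, so that the wild-type arrays alone spanned its whole range of 4.21-fold. *Cpr11B* and *Cpr67B*, also named after their values were seen, were lowest on wild type replicate 1, at 7.57 and 7.97, against 8.28 to 8.67 and 8.60 to 9.00 on the others. What part transcript evenness had in these low values was not tested.

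**Figure D4:**
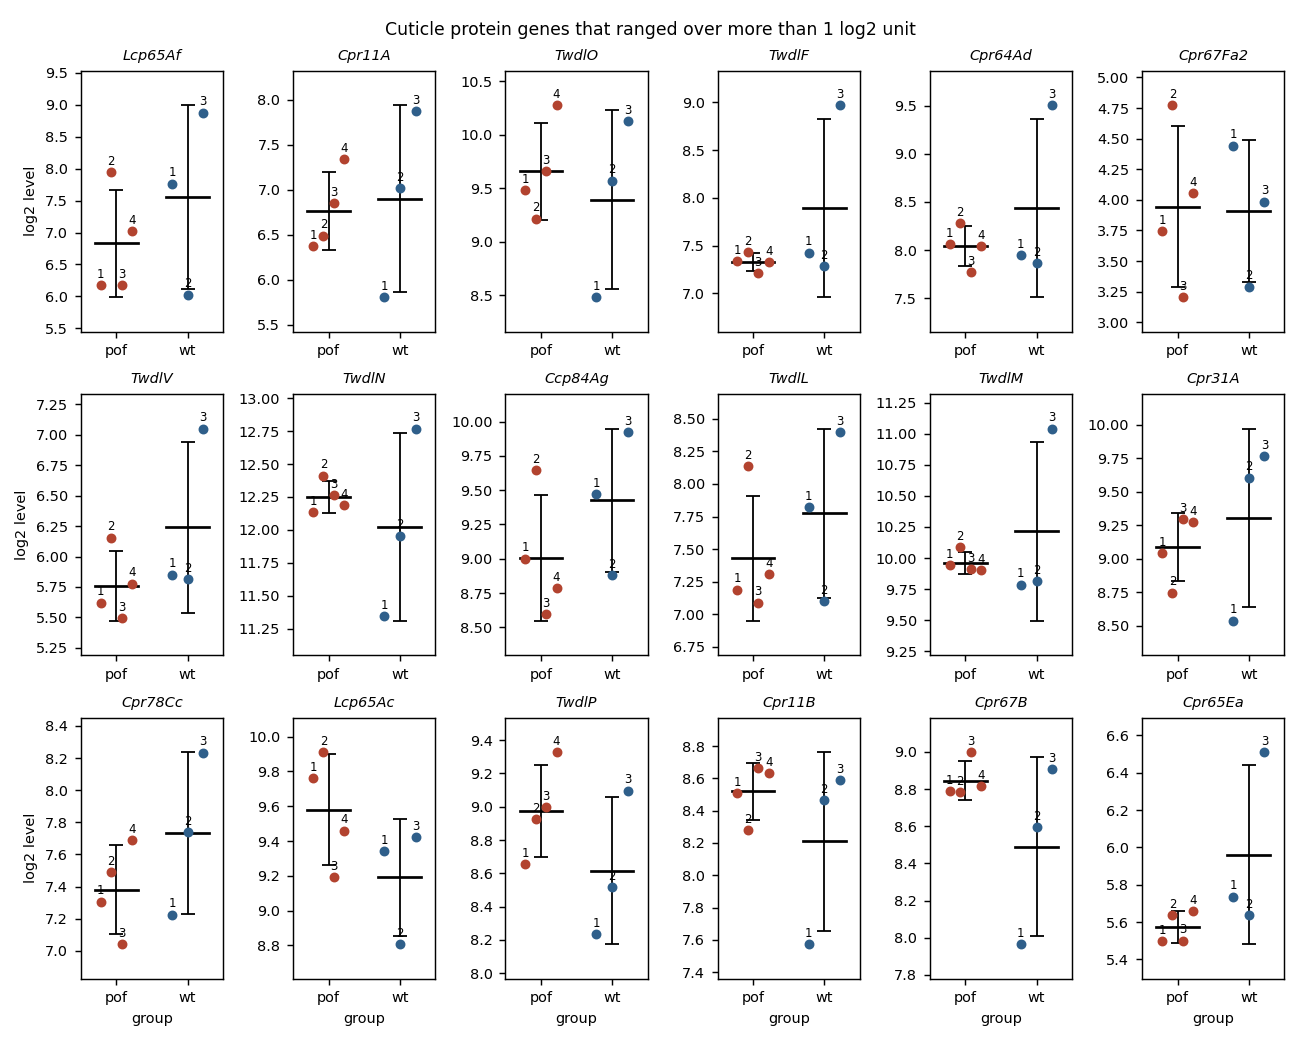
Log2 level of the 18 cuticle protein genes that ranged over more than 1 log2 unit, by group, in order of range. Points are arrays marked with their replicate number, and bars are the group mean ± SD (n = 4 pof mutant, n = 3 wild type). Wild type replicate 3 is the top point of 12 panels, and in 5 panels the wild-type arrays span all mutant ones.

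Markers of muscle and neurons, and in part those of epidermis and trachea, which secrete cuticle, moved with the same arrays. The 4 measured muscle markers had a median, relative to their means over the arrays, of 0.51 on wild type replicate 3 and -0.81 on wild type replicate 1. Of these 4, 3 were highest on the former and 3 lowest on the latter. The log2 of their summed signal was 10.48 to 11.29 in the mutant and 9.61 to 11.65 in wild type. For 3 neuron markers the summed signal was 7.47 to 7.75 in the mutant and 7.34 to 7.83 in wild type. For 7 epidermis and trachea markers it was 10.38 to 10.49 and 9.96 to 10.93. Of these 7, 3 were highest on wild type replicate 3 and 4 lowest on wild type replicate 1. Their median was only 0.08 on the former and -0.53 on the latter. All of them but *btl* are also among the partner genes described below. A summed signal is weighted to the bright probe sets of a list. Here these included *verm* (8.63 on wild type replicate 1 and 9.85 on replicate 3) and *serp* (7.99 and 9.24). In contrast, *ple* was highest on wild type replicate 1 and *Ddc* on pof mutant replicate 2.

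The midgut markers had a median log2 difference of 0.53, higher in the mutant. Of these 5 markers 3 had an unadjusted limma p under 0.05, against 5.43% of all probe sets, and none passed the adjusted threshold. The epidermis and trachea, fat body and haemocyte lists had 1 such gene each. The muscle, neuron, pupal and adult, and embryo lists had 0. None of 4 fat body (11.41 to 11.60 in the mutant and 11.04 to 11.41 in wild type), 5 midgut (13.00 to 13.79 and 13.17 to 13.43) and 5 haemocyte markers (12.94 to 13.09 and 13.00 to 13.20) was highest on wild type replicate 3. The same held for 5 markers of pupae and adults (8.51 to 8.69 and 8.44 to 8.66) and 4 of the embryo (8.90 to 9.23 and 8.92 to 9.32), whose 4 genes were all highest on wild type replicate 1. No marker can read 0 on this scale. The part of any of these lists in the cuticle values was not tested.

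**Figure D5:**
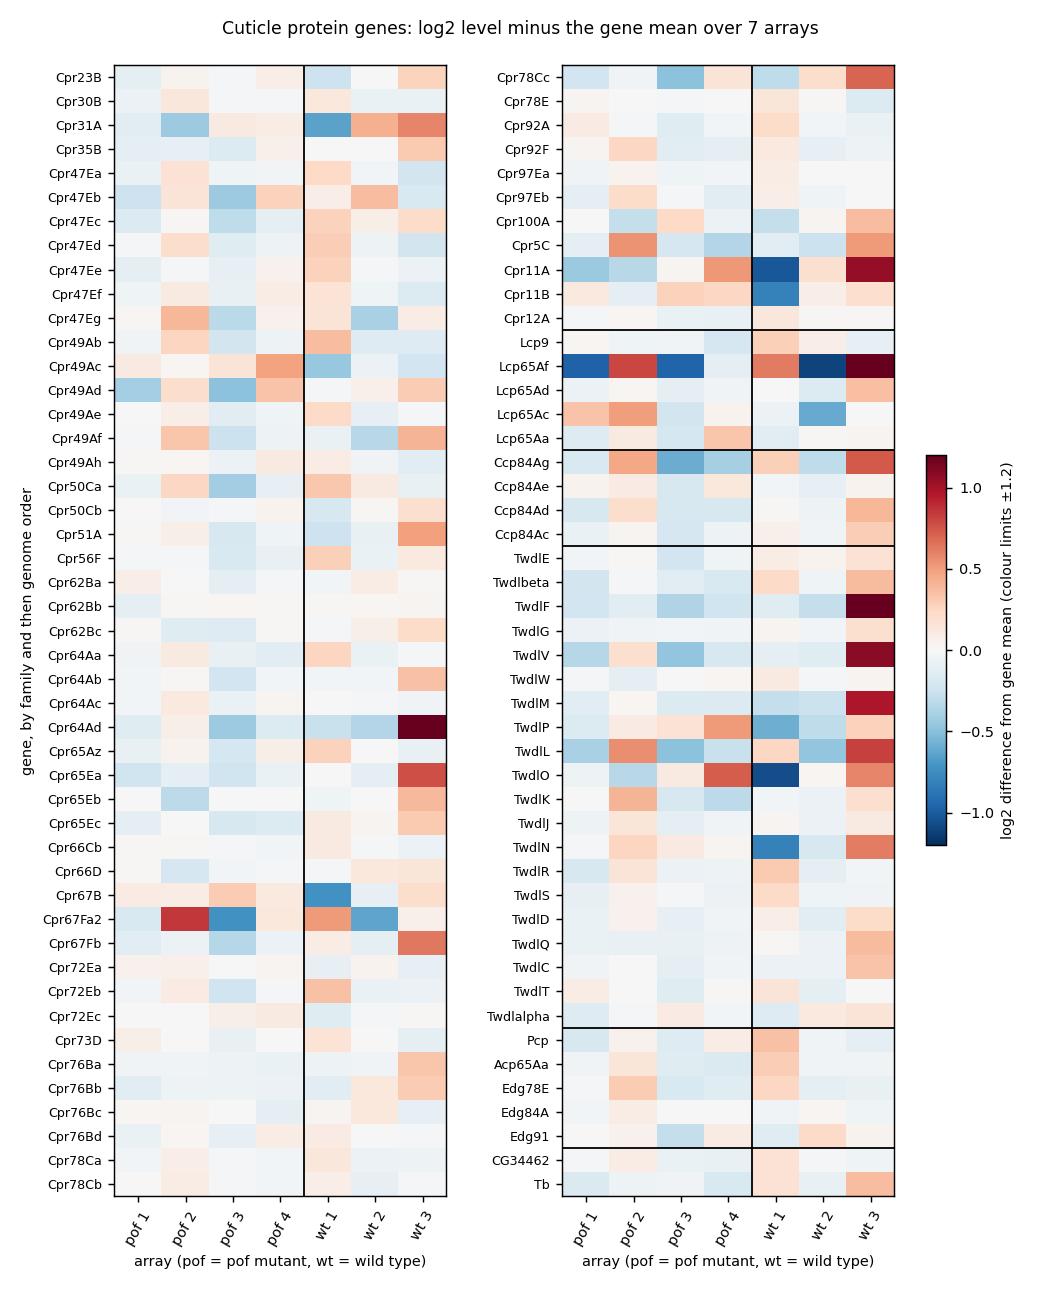
Log2 level of each of the 94 cuticle protein genes minus its mean over the 7 arrays, with arrays in columns (a line parts pof mutant from wild type) and genes in rows, by family and genome order; colours are capped at 1.2. The column of wild type replicate 3 holds the strongest reds, among them *TwdlF*, *TwdlV*, *TwdlM*, *Cpr64Ad* and *Lcp65Af*, while no block of rows separates the groups.

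Gene clusters were taken from the genome, as members that follow each other with at most 50 kb between gene starts in RefSeq Release 6. There were 13 with at least 3 measured genes, 63 genes in all. Median differences lay between -0.48 for the *TwdlF* array and 0.09 for *Cpr72Ea*, *Cpr72Eb* and *Cpr72Ec*. Next to the *TwdlF* array, the lowest were -0.27 at 65E and -0.18 at 84A, which became -0.11 and -0.07 without wild type replicate 3. All measured members had a lower mean in the mutant in 5 clusters of 3 or 4 genes: at 62B, 65E, 76B, the *TwdlF* array and the *TwdlT* array with *Cpr97Ea* and *Cpr97Eb*. In the last of these the differences were only -0.05 to -0.02.

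The Cpr clusters differed in how far their genes ranged over the arrays. Median ranges at 47E (0.51), 49A (0.67), 64A (0.48) and 65E (0.70) were above the 0.37 of all probe sets. Those at 62B (0.21), 72E (0.25), 76B (0.32) and 78C (0.34) were below it. At 47E the widest range was that of *Cpr47Eb* (9.19, 9.60, 9.00 and 9.71 in the mutant; 9.52, 9.81 and 9.26 in wild type), with a difference of -0.15 ± 0.20 (SE; limma, adjusted p = 0.966). At 47E the remaining genes ranged over 0.33 to 0.78. *Cpr62Bc* (6.69, 6.53, 6.52 and 6.69; 6.66, 6.75 and 6.90) had the widest range at 62B, and *Cpr76Bb* (6.47, 6.53, 6.53 and 6.52; 6.46, 6.72 and 6.90) the widest at 76B. In both, the wild-type arrays overlapped the mutant ones through replicate 1. *Cpr72Eb* (6.38, 6.51, 6.18 and 6.40; 6.77, 6.34 and 6.35) stood out on wild type replicate 1, and *Cpr97Eb* (6.33, 6.65, 6.41 and 6.31; 6.52, 6.39 and 6.44) on pof mutant replicate 2. *Cpr78Cc* (7.31, 7.49, 7.04 and 7.69; 7.23, 7.74 and 8.23) ranged over 2.28-fold and was again highest on wild type replicate 3. None of these 5 genes had a limma adjusted p below 0.962.

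Among larval cuticle protein genes, *Lcp65Ac* (CG6956, 3L) had the smallest p. It read 9.76, 9.91, 9.19 and 9.46 in the mutant and 9.34, 8.81 and 9.42 in wild type, a difference of 0.39 ± 0.21 (SE; limma, adjusted p = 0.962). Its higher mutant mean thus went against that of *Lcp65Af* in the same cluster, and 1 mutant array, replicate 3, lay below 2 of the wild-type arrays. *Lcp9* (CG16914, 2R) read 5.86, 5.79, 5.80 and 5.64 in the mutant and 6.12, 5.92 and 5.74 in wild type (-0.15 ± 0.10, SE; adjusted p = 0.962). *Lcp65Aa* (0.04) and *Lcp65Ad* (-0.12) had log2 differences within about 1 standard error of 0.

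The 84A cluster encodes RR proteins of the kind found in rigid cuticle. *Ccp84Ac* (CG1327, 3R) read 7.57, 7.68, 7.45 and 7.59 in the mutant and 7.70, 7.61 and 7.94 in wild type, a difference of -0.18 ± 0.10 (SE; limma, adjusted p = 0.962). *Ccp84Ad* (CG2341, 3R) read 9.64, 10.05, 9.65 and 9.64, and 9.85, 9.78 and 10.23 (-0.21 ± 0.14, SE; adjusted p = 0.962). Its probe set is of the kind that can bind RNA of related family members, so the value cannot be assigned to this gene alone. Both genes were highest on wild type replicate 3, while *Ccp84Ae* differed by 0.05 and *Edg84A*, at the edge of the cluster, by 0.04.

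Genes named for later stages were near the same level in both groups. *Pcp* (CG3440, 2L), a pupal cuticle protein gene nested in an intron of the purine synthesis gene *Gart*, read 6.03, 6.28, 6.08 and 6.32 in the mutant and 6.58, 6.18 and 6.12 in wild type. *Acp65Aa* (CG10297, 3L), which encodes a protein of adult cuticle, read 5.48, 5.67, 5.38 and 5.35, and 5.81, 5.48 and 5.48. Their log2 differences, -0.12 ± 0.13 and -0.12 ± 0.12 (SE; limma, adjusted p = 0.962 for each), were within about 1 standard error of 0. In both genes wild type replicate 1 was the highest array. None of the 5 genes of this group ranged over more than 0.55 log2 units.

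Probe sets of a gene did not always give the same picture. Of 6 members with a second probe set, *TwdlN* (CG5476, 3R), named after its values were seen, is an example. Its brighter probe set, which can bind related Tweedle RNAs, read 12.14, 12.41, 12.26 and 12.19 in the mutant and 11.35, 11.96 and 12.77 in wild type, a difference of 0.23 ± 0.29 (SE; limma, adjusted p = 0.965). On the dimmer one the difference was 1.11 ± 0.37 (SE; unadjusted p = 0.017, adjusted p = 0.704), with 9.81, 9.66, 10.06 and 10.03 in the mutant and 7.86, 8.81 and 9.67 in wild type. On both, wild type replicate 1 was lowest, and the second alone placed 3 of the 4 mutant arrays above every wild-type array. A further 6 probe sets name several cuticle protein genes each and were not assigned to a gene. None of these passed the threshold, and their differences lay between -0.584 and 0.147 (limma, smallest adjusted p = 0.962).

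Genes listed as partners of these proteins in cuticle formation gave no call either. The lists were made by gene name, and whether each gene acts in the cuticle of these larvae was not tested. None of 23 genes of chitin synthesis and the chitin matrix, 11 of cuticle tanning and 15 regulators passed limma's threshold. At an unadjusted p under 0.05 there were 2 matrix genes, 2 tanning genes and 0 regulators, against 5.43% of all probe sets. The median log2 differences were -0.08, 0.0009 and -0.01, and 19 of 23, 5 of 11 and 9 of 15 genes were lower in the mutant by their means, against 58.0% of all probe sets. Of the matrix genes 11 of 23 were highest on wild type replicate 3, as were 0 of 11 tanning genes and 4 of 15 regulators.

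*kkv*, the chitin synthase of epidermis and trachea, read 6.62, 6.63, 6.65 and 6.81 in the mutant and 6.83, 6.89 and 6.95 in wild type, with no overlap (-0.21 ± 0.07, SE; limma, adjusted p = 0.75). The deacetylase genes *Cda9* (-0.34 ± 0.14) and *Cda4* (-0.17 ± 0.09), whose enzymes act on chitin or related polymers, had adjusted p of 0.905 and 0.962. *Ddc*, the dopa decarboxylase that supplies dopamine for tanning, went the other way. It read 7.34, 7.41, 7.28 and 7.32 in the mutant and 6.55, 7.05 and 7.23 in wild type. Here too the groups did not overlap (0.40 ± 0.15, SE, limma, adjusted p = 0.83), and the lowest value was on wild type replicate 1.

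Other tanning genes were *Pu*, needed for the cofactor of tyrosine hydroxylase, at -0.30 ± 0.12 (SE; limma, adjusted p = 0.885), and *ple*, tyrosine hydroxylase itself, at -0.16 ± 0.08 (adjusted p = 0.962). Of the regulators, the POU factor gene *vvl* differed by -0.19 ± 0.09 (SE; adjusted p = 0.933), *br* by 0.09 ± 0.08 and *ftz-f1*, a nuclear receptor that acts after the ecdysone peak, by -0.06 ± 0.07 (both adjusted p = 0.962). *ftz-f1* read 3.34 to 3.36 on 6 arrays, at the floor, and 3.54 on wild type replicate 3.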

How the data were processed

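The authors deposited log2 values per probe set. RMA is the method that the submitters' processing notes list. It sets the arrays to a common distribution, so a probe set's values can be compared between arrays but not between probe sets, and low signals are compressed. Groups and replicate numbers came from the sample titles. Probe sets were named through the platform annotation, updated by gene identifier from RefSeq (Release 6). 44 array controls were left out. The other 13966 probe sets were fitted with limma 3.58.1 (R 4.3.3; lmFit, eBayes) on group alone, and p-values were adjusted by Benjamini-Hochberg over all of them. The standard errors come from the moderated variances. The fit was tested on simulated data. Gene starts in RefSeq were used only to order genes and find clusters. Figures were drawn with matplotlib 3.10.9.

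The members, lists, tests and alternatives were chosen with earlier results of these data known. Named members are those with an unadjusted p under 0.05, those without overlap and a difference of at least 0.3, the 2 with the smallest p of each family, and the widest-ranging gene of each cluster. 3 genes with the smallest p were named from each partner list.

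Alternatives were another quantile normalization, centring, a level limit of 6, eBayes with trend and robust, array weights, suffix filters, averaged probe sets, the replicate number as a block, the 3' minus 5' difference as a covariate, and leaving out each array. The number of arrays limits the precision.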

Additional observations from a re-analysis of the deposited data

Results flagged for a closer look

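Among the 24 named genes, the 4 mutant arrays were searched for 1 that lay apart by Dixon's criterion, which chance meets in about 1 of 20 such sets (1.2 here). It was met once. The rate holds for independent sets not picked by their values. These genes were picked by p or range and share the 4 arrays, so 1.2 is only a rough guide. *Ccp84Ad* read 10.05 on pof mutant replicate 2, and its other mutant arrays had a median of 9.64. The search covered the mutant arrays only, so the high values on wild type replicate 3 described above were not examined by it.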

How the results depend on the processing

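No cuticle protein gene, and no gene of the 3 partner lists, passed the threshold under any of the 16 alternatives, and 370 of 379 values of the 24 named genes kept their direction. The suffix filters removed no probe set of these genes, so that alternative could not test whether their probe sets bind related RNAs. Probe sets past the threshold over the whole array numbered 9, and 76 with array weights, 16 with averaged probe sets, 2 with the replicate block, 86 with the 3' minus 5' covariate, and 0 to 34 when 1 array was left out. Cuticle protein genes with an unadjusted p under 0.05 numbered 5 of 94 (all probe sets 5.43%), and 3 of 67 at a level of at least 6 (7.01%), 8 with array weights (10.6%), 3 with the replicate block (5.37%), 12 with the covariate (15.3%) and 4 to 11 without 1 array. Without wild type replicates 1 and 2 in turn they were 9 (7.3%) and 11 (4.38%). Genes whose groups did not overlap numbered 4, and 5 to 16 when 1 array was left out, since fewer arrays have to separate. Those without wild type replicates 1, 2 and 3 were 12, 16 and 11 (all probe sets 16.0%, 10.7% and 16.0%), and without pof mutant replicates 2 and 3 they were 10 and 8 (10.6% and 8.1%).

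The median difference of Lcp genes moved from -0.12 to 0.044 at a level of at least 6, where 3 genes were left, and ranged from -0.16 to 0.030 without 1 array, the upper end without wild type replicate 3. Signs turned for 5 named genes. With 1 array left out, *Cpr64Ad* ranged from -0.69 to 0.14 (the latter without wild type replicate 3), *TwdlO* from -0.19 (without wild type replicate 1) to 0.63, *Pcp* from -0.20 to 0.023 and *Cpr72Eb* from -0.19 to 0.027 (both upper ends without wild type replicate 1), and *Cpr97Eb* from -0.10 to 0.015. *Cpr72Eb* was 0.0015 with array weights and *Cpr97Eb* 0.015 with the replicate block. The cause was not tested. The sample titles give replicate numbers but do not say whether same-numbered arrays are pairs. Deviations of such arrays from their group means correlated at 0.245, -0.571 and 0.559 over all probe sets. With so few arrays in a group these values cannot decide it. The block cannot use pof mutant replicate 4. Array weights were estimated gene by gene, because the default estimate did not converge. Members near the floor of the array, such as *Cpr47Ec*, have compressed differences.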
